A study of Mus musculus with 6 samples.

Results

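Notch signalling passes between neighbouring cells: a Delta-like or Jagged ligand on one cell binds a Notch receptor on the next, the receptor is cut, and its intracellular domain enters the nucleus. There it binds RBPJ, the DNA-binding protein of the pathway, and a Mastermind-like coactivator such as MAML1, and switches on repressors of the HES and HEY families together with NRARP, a small protein that limits the signal by acting on the intracellular domain. Fringe glycosyltransferases (LFNG, MFNG and RFNG) add sugar to the receptor in the Golgi and so change how it responds to Delta-like and Jagged ligands. In growing vessels the pathway is known for restraining endothelial tip cells and for arterial identity.

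The 10 genes described are these effectors and modifiers, *Hes1*, *Hey1*, *Hey2*, *Heyl*, *Nrarp*, *Rbpj*, *Lfng*, *Mfng*, *Rfng* and *Maml1*, found by symbol among the 55416 genes of the deposited count table. All 10 were among the 16296 genes tested. RNA was sequenced from mGFP+ coronary endothelial cells (ECs) sorted by FACS from the digested ventricles of E15.5 mouse hearts. The 3 ControlΔEC libraries came from Pdgfb-CreERT2/+; Wt1+/+; R26-mTmG/+ embryos and the 3 Wt1KOΔEC libraries from Pdgfb-CreERT2/+; Wt1-LoxP/LoxP; R26-mTmG/+ embryos, which the crosses could yield in one litter. Both genotypes therefore carried the inducible Cre and the mTmG reporter, and all dams received tamoxifen by gavage at 75 mg/kg between E11.5 and E13.5. The Cre is driven by *Pdgfb*, so the libraries represent cells in which this driver was active and recombination of the reporter had occurred. The labels call the libraries biological replicates and do not say how many embryos each one holds.

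In short, none of the 10 genes passed the adjusted threshold of the comparison between genotypes with edgeR, which 0.0736% of all genes tested passed. *Hes1* stood at 1.75 times its ControlΔEC level in Wt1KOΔEC ECs (95% interval 1.36 to 2.26) and was the only one of the 10 whose libraries did not overlap between genotypes, as was so for 19.3% of all genes tested. *Nrarp* was at 0.437 times its ControlΔEC level (0.216 to 0.881), with 1 ControlΔEC library below every Wt1KOΔEC library. *Rbpj*, *Mfng*, *Hey1*, *Rfng* and *Maml1* had fitted changes between -0.24 and 0.13 on the log2 scale, with intervals that include 0.

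Promoters of 3 members are shown because they belong to the feedback gene whose level varied most among ControlΔEC libraries and to the members with the lowest levels. RefSeq promoter windows (table build GRCm38.p6) were at hand for 6 of the 10 genes, *Nrarp*, *Rbpj*, *Lfng*, *Hey2*, *Maml1* and *Rfng*, and each was placed by its only exact match on its chromosome of GRCm39. The windows for *Nrarp* (chr2:25070520-25070769, plus strand, immediately before the GENCODE vM39 gene start), *Lfng* (chr5:140592846-140593074, plus strand, likewise) and *Hey2* (chr10:30718829-30719029, minus strand, likewise) lie outside the annotated exons of these genes. In *Nrarp* the capitals mark HES sites (N-box CACNAG and class C site CACGNG, on either strand), and in *Lfng* and *Hey2* they mark the RBPJ core TGGGAA and the WT1 and EGR1 element GCGNGGGCG, on either strand.
Nrarp: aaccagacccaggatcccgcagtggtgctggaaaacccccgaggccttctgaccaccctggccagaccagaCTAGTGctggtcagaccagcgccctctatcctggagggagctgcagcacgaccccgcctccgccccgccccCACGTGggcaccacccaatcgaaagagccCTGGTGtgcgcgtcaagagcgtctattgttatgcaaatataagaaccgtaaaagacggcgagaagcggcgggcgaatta
Lfng: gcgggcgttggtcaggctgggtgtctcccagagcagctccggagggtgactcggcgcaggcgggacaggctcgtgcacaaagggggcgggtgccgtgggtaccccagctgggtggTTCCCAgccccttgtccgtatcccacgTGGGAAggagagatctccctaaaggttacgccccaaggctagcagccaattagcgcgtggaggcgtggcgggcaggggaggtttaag
Hey2: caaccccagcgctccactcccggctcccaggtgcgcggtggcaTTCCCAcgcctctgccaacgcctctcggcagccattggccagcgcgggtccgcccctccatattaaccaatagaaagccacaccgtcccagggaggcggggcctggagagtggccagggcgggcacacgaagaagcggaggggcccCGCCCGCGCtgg
The *Nrarp* window held 2 N-boxes and 1 class C site and no RBPJ core. The *Lfng* window held 2 RBPJ cores, whose first bases lay 135 and 108 bases before the RefSeq start, and the second of them shares letters with a class C site 112 bases before that start. It also held 3 class C sites in all and 1 N-box, left in lower case. The *Hey2* window held 1 RBPJ core 207 bases before the RefSeq start and 1 WT1 and EGR1 element 61 bases before that start. The letters CACGAG match both HES patterns and are then counted under each. Of 32851 mouse promoters read in the same way over 250 bases, 21.6% held the RBPJ core, 36.7% the N-box, 23.5% the class C site and 4.7% the WT1 and EGR1 element. A match describes the letters of a window and does not name a bound site.

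The libraries held between 26037324 and 44779020 counts, and levels are given as CPM, the count in each library scaled to a common library size with TMM factors, with means ± SD over 3 libraries per genotype. In these libraries 3 counts, taken as the floor of detection, are worth 0.0608 to 0.119 CPM; such floors and the fitted intervals do not correct for amplification, since the libraries carry no molecular identifiers. The targeted gene *Wt1* was at 145, 109.6 and 148.7 CPM in ControlΔEC and at 14.0, 18.4 and 21.3 CPM in Wt1KOΔEC, so the level of every library went with its label. Endothelial markers such as *Pecam1* and *Cdh5* summed to between 5977 and 7455 CPM in ControlΔEC and between 6092 and 6983 CPM in Wt1KOΔEC, and all 10 of them were tested. Markers of other cells in the heart also gave counts, and some of their sums did not overlap between genotypes. Summed markers of fibroblasts ranged from 755 to 1046 CPM in ControlΔEC and from 1402 to 1630 CPM in Wt1KOΔEC, those of the epicardium from 37.8 to 49.2 and from 66.8 to 75.8 CPM, and those of the endocardium from 354 to 470 and from 468 to 559 CPM. At an unadjusted p under 0.05 with edgeR, 5 of 9 fibroblast and 2 of 8 epicardial genes were higher and 0 lower. *Postn*, *Lum* and *Gsn* (log2 fold changes -0.16, 0.04 and 0.04) overlapped between genotypes, as did *Dmkn* (-0.34) and *Aldh1a2* (-0.05). The paper lists *Col1a1* under fibroblasts and also, with *Col3a1* and *Dcn*, among venous markers. Macrophage markers summed to 247 to 747 CPM in ControlΔEC and 179 to 250 CPM in Wt1KOΔEC, erythroid markers to 6573 to 14360 and 5137 to 8536 CPM, and lymphatic markers to 267 to 283 and 277 to 370 CPM. Of the 8 erythroid genes, 2 were higher in Wt1KOΔEC (*Hbb-y* and *Hba-x*) and 2 lower (*Hbb-bt* and *Alas2*) at an unadjusted p under 0.05 with edgeR. Over all genes tested, 5.96% were higher and 7.12% lower at that limit. The part that these marker differences have in the values below was not tested.

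Among the nuclear effectors, *Hes1*, a basic helix-loop-helix repressor and a direct Notch target, lies on GRCm39 at chr16:29882134-29886643. It was at 48.9, 52.7 and 43.0 CPM in ControlΔEC replicates 1, 2 and 3 and at 77.8, 83.8 and 91.9 CPM in Wt1KOΔEC replicates 1, 2 and 3. Every Wt1KOΔEC library lay above every ControlΔEC library, and the libraries of each genotype stayed close together: the SD of its log2 level in ControlΔEC was 0.148, against a median of 0.485 over all genes tested. That median is not matched for level and includes genes with far fewer counts. *Rbpj*, at a similar CPM in ControlΔEC, had an SD of 0.175. The fitted difference was 0.81 on the log2 scale (standard error 0.16, adjusted p = 0.114 with edgeR's quasi-likelihood test), so *Hes1* did not pass the threshold of 0.05. With DESeq2 on the whole table it did pass (adjusted p = 2.61e-04), and with edgeR and no filter on low counts too (adjusted p = 0.0326), while over all the alternatives tried the adjusted p ran from 2.61e-04 to 0.392. The fold change itself stayed between 0.74 (without ControlΔEC replicate 3) and 0.88 (without ControlΔEC replicate 2) with single libraries left out. The study itself reports *Hes1* as higher, *Notch4* and *Jag2* as lower, and *Hey1* and *Dll4* as not significantly changed, on these same libraries. The libraries are therefore no independent evidence for these genes. In bulk libraries of this kind, a different share of cells with *Hes1* and a different amount of *Hes1* RNA per cell cannot be told apart.

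*Hey1* (chr3:8726956-8732385), a HEY repressor of vascular endothelium, had the highest mean level per length of the effectors in both genotypes, although *Hes1* was above it in Wt1KOΔEC replicate 3 (27.2 against 23.0 CPM per kb). It was at 141.6, 94.0 and 141 CPM in ControlΔEC and at 150.6, 151 and 110.3 CPM in Wt1KOΔEC. The lowest library belonged to ControlΔEC and the genotypes overlapped. For *Hey1* the fold change was 0.13 on the log2 scale (standard error 0.21, 95% interval -0.34 to 0.60, adjusted p = 0.878 with edgeR's quasi-likelihood test), and it turned to -0.04 without ControlΔEC replicate 2 and to -0.02 when libraries were scaled by their totals only.

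*Heyl* (chr4:123127349-123143682), a family member also known from vascular smooth muscle, was at 17.9, 11.1 and 21.3 CPM in ControlΔEC and at 12.0, 11.4 and 5.54 CPM in Wt1KOΔEC. ControlΔEC replicate 2 lay just below 2 of the Wt1KOΔEC libraries, and Wt1KOΔEC replicate 3 lay below all others. On the log2 scale *Heyl* differed by -0.80 (standard error 0.38, 95% interval -1.66 to 0.07, adjusted p = 0.422 with edgeR's quasi-likelihood test), and it was -0.52 without Wt1KOΔEC replicate 3, a difference of more than 1.5 times. The summed markers of mural cells, the pericytes and smooth muscle cells around vessels, were at 604.7, 474 and 638.9 CPM in ControlΔEC and at 385.7, 345.5 and 327 CPM in Wt1KOΔEC, with 4 of the 8 tested mural genes lower at an unadjusted p under 0.05, beside 7.12% of all genes tested. None of these genes was called by edgeR, and DESeq2 called *Pdgfrb*, *Rgs5* and *Cspg4* lower in Wt1KOΔEC (adjusted p = 0.00805, 0.0210 and 0.0149). In the same list *Acta2* and *Tagln* had log2 fold changes of -0.04 and 0.92, and both overlapped between genotypes. *Abcc9* alone was at 263 ± 28.6 CPM in ControlΔEC and at 197 ± 35.1 CPM in Wt1KOΔEC. The paper places *Rgs5* and *Kcnj8*, also in this list, among arterial markers. The part of mural cells in the *Heyl* values was not tested.

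*Hey2* (chr10:30708350-30718828), a HEY repressor known from arteries and from compact ventricular myocardium, had the lowest level per length of the 10 genes. It was at 3.33, 2.78 and 0.937 CPM in ControlΔEC and at 3.61, 3.26 and 1.43 CPM in Wt1KOΔEC, from 149, 137 and 27 counts and from 141, 116 and 36 counts. Replicate 3 was the lowest library in both genotypes, and the genotypes overlapped. *Hey2* had a log2 fold change of 0.23 with a standard error of 0.76 (adjusted p = 0.948 with edgeR's quasi-likelihood test). Its interval, from -1.48 to 1.95, spans a wide range of changes in either direction. Cardiomyocyte markers summed to 227 to 318 CPM in ControlΔEC and to 189 to 413 CPM in Wt1KOΔEC. Of these 11 markers 10 were tested, and all 10 overlapped between genotypes. *Myh7*, for example, was at 43.78, 64.98 and 58.83 CPM in ControlΔEC and at 75.63, 31.15 and 87.78 CPM in Wt1KOΔEC. Only *Nkx2-5* had too few counts to be tested, with 0, 0 and 0 in ControlΔEC and 0, 9 and 23 in Wt1KOΔEC. Cardiomyocyte RNA was thus present in both genotypes, and its part in the *Hey2* values was not tested.

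**Figure D1:**
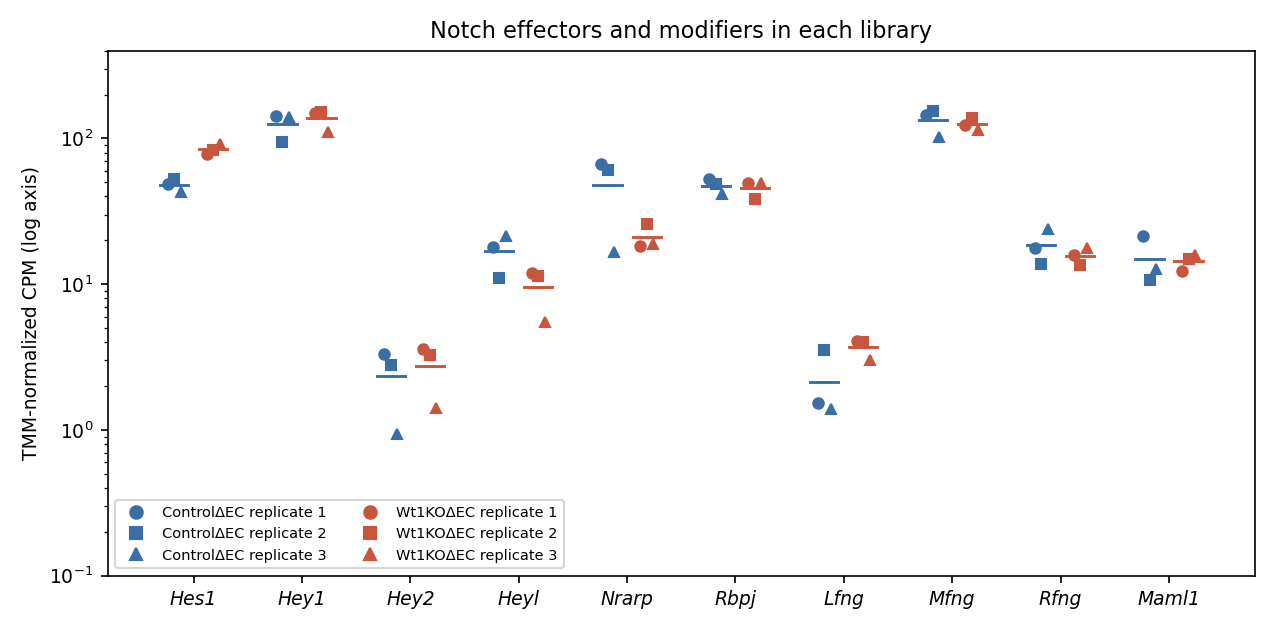
Level of each of the 10 genes in every library, in TMM-normalized CPM on a log axis, with blue points for ControlΔEC, red points for Wt1KOΔEC, a marker shape for each replicate number and a line at the mean of 3 libraries. *Hes1* shows separate groups of points, 43.0 to 52.7 against 77.8 to 91.9 CPM, while *Nrarp* shows 1 ControlΔEC library at 16.5 CPM, well under the other ControlΔEC libraries.

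*Nrarp* (chr2:25070770-25073351), a Notch target whose product restrains the pathway, was at 67.1, 60.6 and 16.5 CPM in ControlΔEC and at 18.3, 25.8 and 19.0 CPM in Wt1KOΔEC. ControlΔEC replicates 1 and 2 were far above all Wt1KOΔEC libraries, and ControlΔEC replicate 3 was below all of them. Its fitted log2 fold change was -1.20 (standard error 0.45, 95% interval -2.21 to -0.18, adjusted p = 0.310 with edgeR's quasi-likelihood test). Without ControlΔEC replicate 3 it was -1.60, with an adjusted p of 0.0506 in edgeR's quasi-likelihood test, and without ControlΔEC replicate 1 it was -0.88. The SD of the log2 level of *Nrarp* was 1.125 in ControlΔEC, the highest of the 10 genes, and 0.271 in Wt1KOΔEC. ControlΔEC replicate 3 stood at no more than 50% of both other ControlΔEC libraries for *Nrarp* and *Hey2*, and over all genes tested the same was so for 8.14%, the lowest share of any library. The opposite, a level at least 2 times both others, was so for 8.38% of all genes tested in this library, the highest share of any. Of the opposite-strand gene models that overlap *Nrarp*, *Gm38287* held between 0 and 2.57% and *Gm13387* between 0 and 13.9% of their summed counts with *Nrarp*, and the library protocol does not mark the strand.

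Of the proteins that carry the signal onto DNA, neither *Rbpj* nor *Maml1* had a fold change larger than its standard error. *Rbpj* (chr5:53623494-53814704) was at 52.6, 48.7 and 41.4 CPM in ControlΔEC and at 49.8, 38.6 and 49.4 CPM in Wt1KOΔEC, with the genotypes interleaved. Its log2 fold change was -0.05 (standard error 0.19, 95% interval -0.48 to 0.38, adjusted p = 0.957 with edgeR's quasi-likelihood test), and it was 0.03 without ControlΔEC replicate 1 and 0.06 without Wt1KOΔEC replicate 2. A processed copy, *Rbpj-ps3*, took between 0.723 and 4.37% of the counts assigned to either; reads of near-identical copies cannot be assigned with certainty. *Maml1* (chr11:50146461-50183190), the Mastermind-like coactivator of the complex, was at 21.6, 10.7 and 12.7 CPM in ControlΔEC and at 12.3, 14.9 and 15.8 CPM in Wt1KOΔEC. Its highest library and its lowest both belonged to ControlΔEC. For *Maml1* the fitted value was -0.07 on the log2 scale (standard error 0.32, 95% interval -0.79 to 0.66, adjusted p = 0.969 with edgeR's quasi-likelihood test), and it became 0.29 without ControlΔEC replicate 1 and 0.03 without Wt1KOΔEC replicate 1. The paralogs *Maml2* and *Maml3* differed by -0.08 and -0.11 on the log2 scale (adjusted p of 0.948 and 0.909 with edgeR).

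Of the Fringes, *Mfng* (chr15:78640074-78657718) had the highest level per length of the 10 genes. It was at 144, 155 and 102 CPM in ControlΔEC and at 123, 138 and 114 CPM in Wt1KOΔEC, and the Wt1KOΔEC libraries all lay inside the ControlΔEC range. *Mfng* differed by -0.10 on the log2 scale (standard error 0.19, 95% interval -0.53 to 0.33, adjusted p = 0.905 with edgeR's quasi-likelihood test), and it was 0.02 without ControlΔEC replicate 2. *Rfng* (chr11:120671370-120675329) was at 17.6, 13.7 and 24.1 CPM in ControlΔEC and at 15.8, 13.5 and 17.7 CPM in Wt1KOΔEC. The groups overlapped, with ControlΔEC replicate 3 the highest library. The log2 fold change of *Rfng* was -0.24 (standard error 0.28, 95% interval -0.87 to 0.40, adjusted p = 0.819 with edgeR's quasi-likelihood test), and it was 0.005 without ControlΔEC replicate 3.

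*Lfng* (chr5:140593075-140601300), the Fringe best known for its oscillation in somite formation, was scarce. It was at 1.52, 3.53 and 1.39 CPM in ControlΔEC and at 4.10, 4.04 and 3.01 CPM in Wt1KOΔEC, from 68, 174 and 40 counts and from 160, 144 and 76 counts. ControlΔEC replicate 2 lay above Wt1KOΔEC replicate 3, and the other ControlΔEC libraries were below every Wt1KOΔEC library. On the log2 scale the fold change was 0.79 (standard error 0.66, 95% interval -0.69 to 2.27, adjusted p = 0.700 with edgeR's quasi-likelihood test), close in size to that of *Hes1* with a larger standard error. It ranged from 0.56 (without ControlΔEC replicate 3) to 1.35 (without ControlΔEC replicate 2), the second of these more than 1.5 times the value with all libraries.

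**Figure D2:**
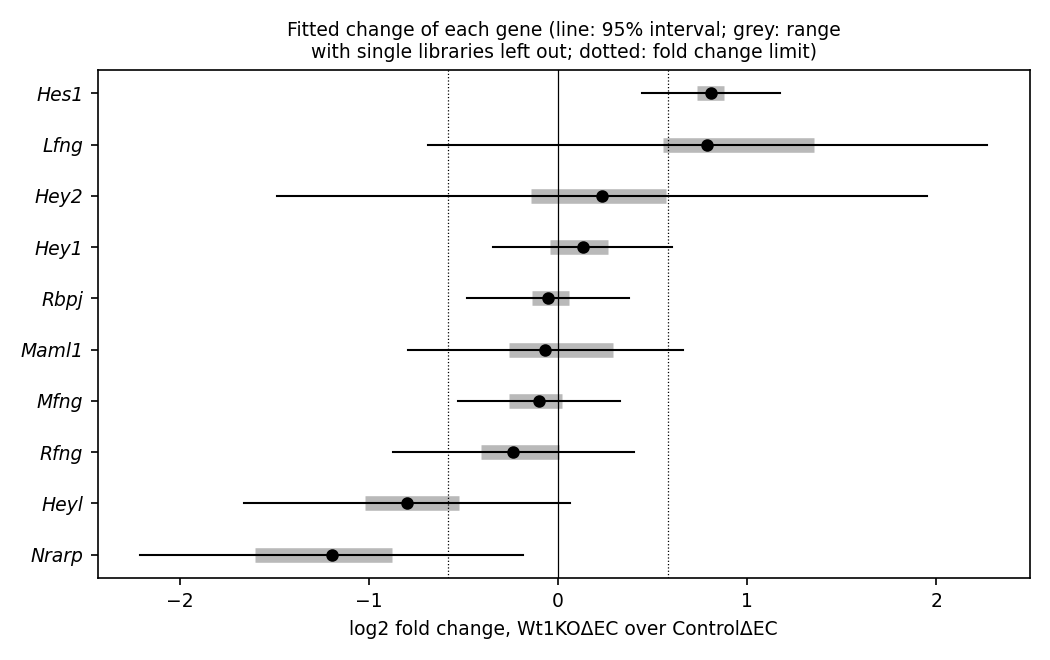
Log2 fold change of each gene, Wt1KOΔEC over ControlΔEC, as a point with its 95% interval as a line and, in grey, the range with single libraries left out; dotted lines mark the fold change limit of 0.58 in either direction. The intervals of *Hes1* (0.45 to 1.17) and *Nrarp* (-2.21 to -0.18) exclude 0, and the other 8 include it.

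Counted together, 0 of the 10 genes were called by edgeR at an adjusted p under 0.05 with a log2 fold change beyond 0.58 in either direction, where 0.0736% of all genes tested were called. At an unadjusted p under 0.05, 2 of 10 passed (20.0%), *Hes1* higher and *Nrarp* lower, beside 13.1% of all genes (5.96% higher and 7.12% lower). Libraries did not overlap for 1 of 10 (10.0%), *Hes1*, beside 19.3% of all genes (10.3% higher and 8.97% lower). DESeq2 called 1 of 10, *Hes1*, beside 4.83% of the genes to which it gave an adjusted p (2.2% higher and 2.63% lower), and limma-voom called 0 of 10, beside 0.0491%. The fold changes were above 0 for 4 genes (40.0%) and below 0 for 6, beside 48% above 0 over all genes tested, and their median was -0.06, beside -0.03. The 10 genes thus differed among themselves in sign and size, and their median lay near that of all genes.

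To compare levels between genes, CPM was divided by exonic length, taken as all annotated exons of a gene merged. Places in the order depend on this length, which was 12.8 kb for *Rbpj* and 3.09 kb for *Rfng*. Before the division *Rbpj* was above *Rfng* in ControlΔEC (47.6 ± 5.65 against 18.5 ± 5.27 CPM). In ControlΔEC the order of CPM per kb ran from *Mfng* (36.6 ± 7.77) over *Hey1* (26.2 ± 5.69), *Nrarp* (18.6 ± 10.7), *Hes1* (14.3 ± 1.45), *Rfng* (5.98 ± 1.71), *Rbpj* (3.70 ± 0.440), *Heyl* (3.17 ± 0.980) and *Maml1* (2.33 ± 0.894) to *Lfng* (0.848 ± 0.474) and *Hey2* (0.479 ± 0.256). Neighbours in this order had overlapping libraries except *Hes1* and *Rfng*, *Rfng* and *Rbpj*, and *Maml1* and *Lfng*. The ECs thus held far more *Mfng* than *Lfng* RNA per length, and far more *Hey1* and *Hes1* than *Hey2*. Among all genes tested, *Mfng* stood at percentile 95.6 and *Hey2* at percentile 26.8. In Wt1KOΔEC *Hes1*, at 25.0 ± 2.09 CPM per kb, stood above *Nrarp*, at 8.14 ± 1.61 CPM per kb, and *Maml1* above *Heyl*, while the other 6 genes kept their places.

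The composition of each family within a library does not depend on how libraries are scaled. *Hes1* made up 30.1, 41.2 and 27.5% of the summed CPM per kb of the 4 HES and HEY effectors in ControlΔEC and 40.1, 42.0 and 52.8% in Wt1KOΔEC. ControlΔEC replicate 2 was within the Wt1KOΔEC range, and the other ControlΔEC libraries were under it. The difference of 12.0 percentage points (32.9 ± 7.29 against 45.0 ± 6.85%) had p = 0.2 in a two-sided exact permutation test, in which 3 libraries against 3 cannot give less than 0.1. The share of *Hey1* was 58.9 ± 6.25% in ControlΔEC and 50.8 ± 5.45% in Wt1KOΔEC, and that of *Hey2* was 1.11 ± 0.603% and 0.989 ± 0.377%. *Heyl* made up 7.04, 5.54 and 8.68% in ControlΔEC and 3.93, 3.64 and 2.03% in Wt1KOΔEC, so that its share, unlike its CPM, did not overlap. The sum under this share holds *Hes1*, which was itself higher in Wt1KOΔEC without overlap. The 4 effectors summed to 48.1, 37.9 and 46.3 CPM per kb in ControlΔEC and to 57.4, 59.1 and 51.5 CPM per kb in Wt1KOΔEC, with every Wt1KOΔEC library the higher. Within this sum *Hes1* went from 14.3 ± 1.45 to 25.0 ± 2.09 and *Hey1* from 26.2 ± 5.69 to 28.6 ± 4.88 CPM per kb. Single genes did not overlap for 19.3% of all genes tested, and no such rate is given for shares or sums.

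Within the Fringes, *Lfng* was a minor part in both genotypes. It made up 1.31, 2.88 and 1.52% of their summed CPM per kb in ControlΔEC and 4.01, 3.66 and 3.12% in Wt1KOΔEC, and all Wt1KOΔEC libraries lay above all ControlΔEC libraries. The difference of 1.69 percentage points (1.90 ± 0.855 against 3.60 ± 0.450%) had p = 0.1 in a two-sided exact permutation test, the smallest p possible here. No rate over other gene families is given beside it. *Mfng* made up 83.7 ± 5.95% and 83.8 ± 2.29%, and *Rfng* 14.4 ± 6.44% and 12.6 ± 2.52%. The summed Fringes were at 43.4 ± 6.42 CPM per kb in ControlΔEC and 40.7 ± 2.79 CPM per kb in Wt1KOΔEC and overlapped.

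**Figure D3:**
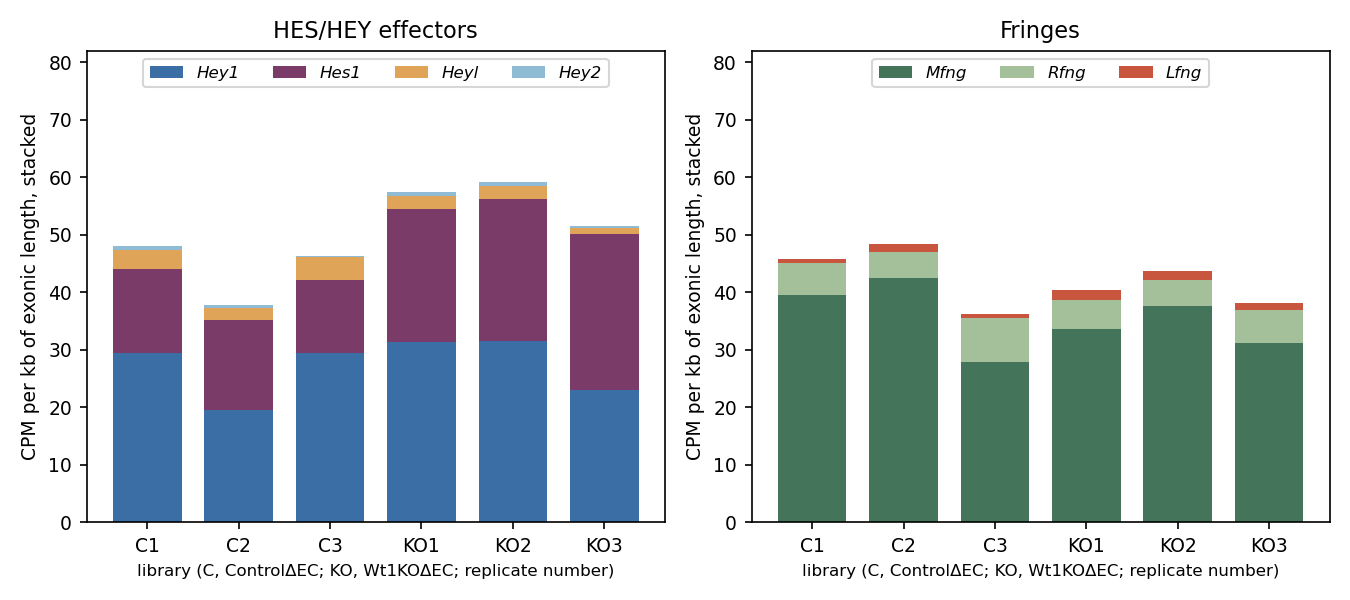
Stacked CPM per kb of exonic length of the 4 HES and HEY effectors and of the 3 Fringes in each library, where C is ControlΔEC and KO is Wt1KOΔEC with the replicate number. The effector stacks reach 37.9 to 48.1 in ControlΔEC and 51.5 to 59.1 in Wt1KOΔEC with a larger *Hes1* block, and *Mfng* fills most of every Fringe stack.

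The genes whose levels across the 6 libraries were most like those of *Hes1*, the gene with the smallest p of the 10, were sought among 8471 tested genes with a mean of at least 10 CPM by the mean absolute difference of centred log2 CPM. They were *Lmo4*, a LIM-only transcriptional cofactor (0.041), *Gap43*, a growth-cone protein (0.057), and *Mrps23*, a subunit of the mitochondrial ribosome (0.075 on the log2 scale). *Lmo4* was at 8.74 ± 1.31 CPM in ControlΔEC and 15.51 ± 1.08 CPM in Wt1KOΔEC, *Gap43* at 47.9 ± 6.51 and 80.5 ± 9.86 CPM, and *Mrps23* at 11.6 ± 1.08 and 19.1 ± 0.438 CPM. None of the 3 passed the adjusted threshold with edgeR (adjusted p = 0.264, 0.170 and 0.267).

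A wider list of 70 other Notch pathway genes, from receptors to corepressors, gives the surroundings of these genes. Of the 65 that were tested, 0 were called by edgeR; 11 (16.9%) had an unadjusted p under 0.05, 4 of them higher and 7 lower, beside 13.1% of all genes, and 14 (21.5%) did not overlap between genotypes, beside 19.3%. Their median log2 fold change was -0.12, with 25 above and 40 below 0. DESeq2 called 3 of them, *Hdac1*, *Jag2* and *Kat2b*, where it called 4.83% of all genes. *Dll3*, *Hes2*, *Hes3*, *Helt* and *Rbpjl* had too few counts to be tested.

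Among the receptors, which had 3 of 4 fold changes below 0, *Notch1* was at 641.6, 760.8 and 349 CPM in ControlΔEC and at 404.4, 448 and 355.8 CPM in Wt1KOΔEC. *Notch4*, the receptor largely limited to endothelium, was at 324.8, 428.2 and 103.3 CPM in ControlΔEC and at 142.4, 133.4 and 129.9 CPM in Wt1KOΔEC. Both receptors had the layout seen in *Nrarp*: ControlΔEC replicates 1 and 2 high, and ControlΔEC replicate 3 below every Wt1KOΔEC library. The log2 fold change of *Notch1* was -0.54 (standard error 0.26, adjusted p = 0.432) and that of *Notch4* was -1.08 (standard error 0.41, adjusted p = 0.319, both with edgeR's quasi-likelihood test), and *Notch4* passed the threshold without ControlΔEC replicate 3. With DESeq2 on the whole table *Notch4*, which the paper lists as lower, was not called (adjusted p = 0.0861). The ligand *Jag2* was at 66.2, 59.5 and 45.1 CPM in ControlΔEC and at 35.1, 34.2 and 29.1 CPM in Wt1KOΔEC, with no overlap (log2 fold change -0.80, standard error 0.20, adjusted p = 0.199 with edgeR's quasi-likelihood test). *Jag1* was at 28.5, 21.2 and 33.8 CPM and at 16.7, 24.2 and 14.3 CPM (adjusted p = 0.420), and *Dll4*, the ligand of tip cells and arteries, was at 312, 351 and 218 CPM and at 266, 316 and 221 CPM (adjusted p = 0.876). The *Jag1* and *Dll4* libraries overlapped between genotypes.

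**Figure D4:**
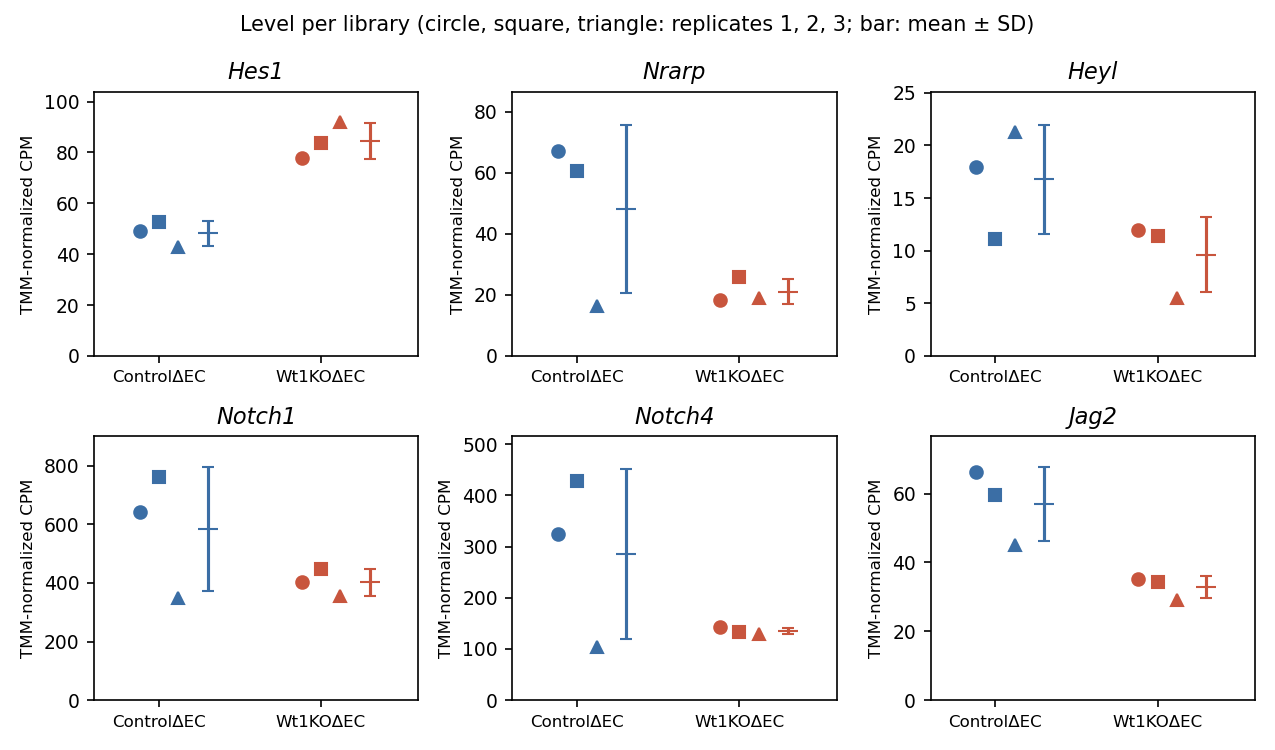
Levels in TMM-normalized CPM of *Hes1*, *Nrarp*, *Heyl*, *Notch1*, *Notch4* and *Jag2* in each library, with bars at the mean ± SD of 3 libraries per genotype and axes from 0. ControlΔEC replicate 3, the blue triangle, is the lowest of the 6 libraries for *Nrarp* (16.5 CPM), *Notch1* (349 CPM) and *Notch4* (103.3 CPM). It is also the lowest for *Hes1* (43.0 CPM), but there it lies close to the other ControlΔEC libraries. The share of all genes tested for which it is the lowest was not counted.

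The 5 smallest p-values of the list belonged to *Jag2* and to the 4 genes that follow, and none of them was called by edgeR. *Hdac1*, a histone deacetylase found in corepressor complexes, was at 96.5, 92.5 and 80.8 CPM in ControlΔEC and at 142.6, 130.1 and 146 CPM in Wt1KOΔEC (log2 fold change 0.63, standard error 0.15, adjusted p = 0.170 with edgeR's quasi-likelihood test), without overlap. *Hdac2* was at 162, 159.3 and 84.5 CPM and at 77.9, 79.1 and 83.0 CPM (log2 fold change -0.76, standard error 0.24, adjusted p = 0.253), so the paralogs had fold changes of opposite sign. *Kat2b*, an acetyltransferase of the coactivator side, was at 8.87 ± 1.75 and 3.64 ± 1.09 CPM (log2 fold change -1.28, standard error 0.43, adjusted p = 0.267). *Adam17*, a protease that can shed Notch, was at 112 ± 6.20 and 84.2 ± 7.77 CPM (log2 fold change -0.42, standard error 0.15, adjusted p = 0.293).

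**Figure D5:**
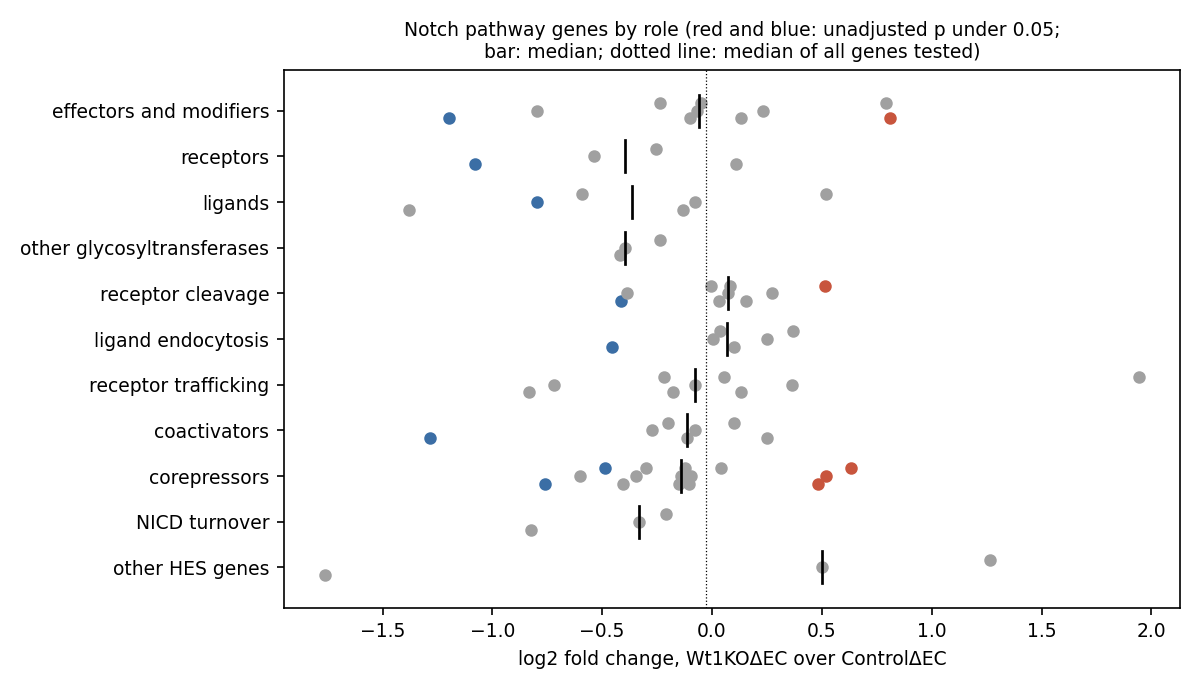
Log2 fold change, Wt1KOΔEC over ControlΔEC, of each tested gene by its role in the Notch pathway, with the 10 genes described here in the top row, a bar at the median of each role and colour where the unadjusted p is under 0.05. The top row has a median of -0.06 and 1 coloured gene on either side, and the dotted line at -0.03 is the median of all genes tested.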

How the data were processed

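mGFP+ ECs from E15.5 hearts were profiled in 3 ControlΔEC and 3 Wt1KOΔEC libraries, grouped by their labels. The authors made SMART-seq2 and Nextera XT libraries without strand or molecular identifiers, aligned reads with STAR 2.7.8a and quantified genes with RSEM 1.3.0, and deposited the expected counts that RSEM gave for each gene, as whole numbers and not normalized. The methods name GRCm39 and GENCODE vM27, while the submitters' processing notes list GRCm38, so positions were taken from GENCODE vM39 on GRCm39 by gene identifier (54749 of 55416 matched).

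The steps here were run in R 4.3.3, with limma 3.58.1, edgeR 4.0.16 and DESeq2 1.42.0. A gene was tested when 2 or more libraries had 10 or more counts. Genotypes were compared over all 16296 genes by edgeR's quasi-likelihood test on TMM-scaled counts, Benjamini-Hochberg adjusted; a call needed an adjusted p under 0.05 with a log2 fold change beyond 0.58 in either direction. The study's methods name DESeq2, here an alternative. Standard errors are the fitted change over the square root of F, and intervals are at 95%. The members, the wider pathway list, the marker lists and the naming rule (all members, *Wt1*, the 5 list genes with the smallest p, fixed receptors, ligands and Mastermind paralogs, and the 3 genes most like *Hes1*) were chosen with earlier results of these data known. The steps were tested on simulated counts. Promoter letters are RefSeq's. No batch is named in the labels or methods, and one that ran along with genotype cannot be told apart from it.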

Additional observations from a re-analysis of the deposited data

How the results depend on the processing

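The number of genes called over the whole table, 12 with edgeR, was 767 with DESeq2, 599 with DESeq2 on the genes kept for edgeR (chosen after seeing the data), 296 without a filter on low counts, 113 with at least 10 counts in every library, and 1652 at an unadjusted p with the fold change limit, and it ran from 2 (without Wt1KOΔEC replicate 3) to 37 (without ControlΔEC replicate 3) with single libraries left out. Of the 10 Notch genes, 0 with edgeR, the number called was 1 (*Hes1*) with either DESeq2 fit and without a filter, 2 at an unadjusted p with the fold change limit, and 0 with any single library left out. Of the wider list, 0 with edgeR, 3 were called with DESeq2, 2 with DESeq2 on the genes kept for edgeR, 5 at an unadjusted p with the fold change limit, and between 0 and 1 with single libraries left out, the 1 being *Notch4* without ControlΔEC replicate 3. The cause of these shifts was not tested.

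Of 170 fold changes of the 10 genes under alternatives, 157 kept their sign and side of the threshold, 3 were newly past it (all *Hes1*) and 10 changed sign: *Hey1* to -0.016 (library size only) and -0.041 (without ControlΔEC replicate 2), *Hey2* to -0.142 and -0.004 (without ControlΔEC replicate 3 and Wt1KOΔEC replicate 1), *Rbpj* to 0.029 and 0.061 (without ControlΔEC replicate 1 and Wt1KOΔEC replicate 2), *Maml1* to 0.292 and 0.034 (without ControlΔEC replicate 1 and Wt1KOΔEC replicate 1), *Mfng* to 0.024 (without ControlΔEC replicate 2) and *Rfng* to 0.005 (without ControlΔEC replicate 3). With single libraries left out these 6 genes ran from -0.041 to 0.264 (*Hey1*), -0.142 to 0.570 (*Hey2*), -0.138 to 0.061 (*Rbpj*), -0.259 to 0.292 (*Maml1*), -0.261 to 0.024 (*Mfng*) and -0.409 to 0.005 (*Rfng*). Scaling by library size alone moved the median of all genes from -0.03 to -0.18, and *Hes1* was at 0.66 there. The labels do not say whether the replicate numbers pair the libraries. Libraries of the genotypes were compared by their deviations from the mean of their genotype, not by the levels themselves. Correlations of these deviations were 0.067, 0.004 and 0.045 for same-numbered libraries. They ran from -0.062 to 0.023 for the other pairs. With 3 libraries per genotype, such values cannot settle whether there was a pairing. With the replicate number as a block, 5 genes and 0 of the 10 Notch genes were called. With 3 libraries per genotype and low counts, the intervals of *Hey2* (-1.48 to 1.95) and *Lfng* (-0.69 to 2.27) span large changes in either direction.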

Other observations

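The ratio of *Hes1* to each of the other 9 genes within a library does not depend on library scaling; it was looked at after the fold changes had been seen and is given as a description. The ratio did not overlap between genotypes for 6 of the 9 genes, each time higher in Wt1KOΔEC; because the *Hes1* levels already separate with little spread, the same ratio to each of the other 16295 genes tested did not overlap for 47.3% of them, so the count largely restates the *Hes1* difference. *Hes1* CPM over *Rbpj* CPM was 0.931, 1.08 and 1.04 in ControlΔEC and 1.56, 2.17 and 1.86 in Wt1KOΔEC, and over *Mfng* CPM it was 0.339, 0.339 and 0.423 in ControlΔEC and 0.634, 0.608 and 0.806 in Wt1KOΔEC. Against *Nrarp*, a target of the same pathway, it was 0.729, 0.869 and 2.60 in ControlΔEC and 4.25, 3.25 and 4.85 in Wt1KOΔEC, a separation that the *Nrarp* levels on their own did not show. Against *Hey1*, *Hey2* and *Lfng* the ratio overlapped between genotypes, with log2 differences of 0.67, 0.49 and -0.10.

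By role, the wider Notch genes with an unadjusted p under 0.05 were 5 of 15 corepressors (3 higher and 2 lower), 2 of 9 receptor cleavage genes (1 higher and 1 lower), and 1 receptor, 1 ligand, 1 ligand endocytosis gene and 1 coactivator, all lower, beside 13.1% of all genes tested (5.96% higher and 7.12% lower). Receptor trafficking, other glycosyltransferases, turnover of the intracellular domain and other HES genes had 0. Differences between roles were not tested.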
